A study of Mus musculus with 4 samples.

Results

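The genes described here are 40 genes of the response to type I and type II interferon, chosen by name from the 31053 genes of the authors' feature table. They were followed in scRNA-Seq counts of cultured mouse splenic B cells from wild-type (WT) mice. The labels describe 2 samples of Bregs-CpG, purified B cells cultured for 3 days in the presence of the TLR9 ligand CpG B ODN 1668. In the 2 samples of Bregs-TLR, the last 5 hours of this culture also included LPS, ionomycin, and PMA. All 4 samples therefore shared the CpG culture and the WT genotype. Each barcode ends in a library number from 5 to 8, and no label ties a library number to a sample, so levels are given per library and no difference between Bregs-CpG and Bregs-TLR was tested.

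Interferons are secreted cytokines that most cells answer with a common antiviral program. Type I interferons bind the Ifnar1 and Ifnar2 chains, and interferon gamma binds Ifngr1 and Ifngr2. JAK kinases on these receptors activate STAT proteins, which enter the nucleus with interferon regulatory factors and switch on interferon-stimulated genes. In B cells, ligands of nucleic acid receptors such as CpG DNA are known inducers of parts of this program.

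In all, 18534 cells passed the filters of at least 1000 detected genes and under 10% mitochondrial counts. Libraries 5, 6, 7, and 8 held 4196, 4714, 5621, and 4003 of these cells, with medians of 8752 to 10355 unique molecular identifiers (UMIs, 1 per captured mRNA molecule) and 44842982 to 63638158 UMIs in all. Levels are given as CPM, the UMIs of a gene per 1000000 UMIs of its library. The median mitochondrial share was 7.22%, 7.18%, 4.61%, and 4.65% in libraries 5, 6, 7, and 8. The B cell gene Cd79a, a chain of the B cell receptor complex, had 3072, 3239, 1057, and 1033 CPM in libraries 5 to 8, and its partner Cd79b had 2158, 2226, 294, and 307. The summed T cell genes reached at most 0.788, NK genes 0.981, myeloid genes 2.98, and plasmacytoid dendritic cell genes 6.62 CPM in any library. Cd3e, Cd4, Cd8a, Ncr1, Klrb1c, Lyz2, S100a8, S100a9, Siglech, and Klk1 among these markers had no UMI. Erythroid genes (Hbb-bs and Hbb-bt, with Hba-a1 and Hba-a2 at 0) summed to 4.59, 4.30, 219, and 285 CPM, and replication genes (Mcm3, Mcm5, Mcm6, Pcna, and Rrm2) to 179.5, 194, 383, and 362. Plasma cell genes summed to 1614, 1779, 389.8, and 339 CPM, of which Mzb1 gave 1441, 1548, 154, and 157, whereas Jchain had 36.3, 83.3, 70.9, and 30.1 and Xbp1 84.7, 91.7, 112, and 107. The mitochondrial share, Cd79a, Cd79b, Mzb1, and the erythroid and replication sums thus differed between the same pairs of libraries as the results below, and their part in these results was not tested. Of the barcode sequences, 29 occurred in 2 libraries.

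All 40 genes had UMIs in these cells, and 38 of them reached 200 UMIs over the 4 libraries. Summed over the 40 genes, the level was 1007, 1045, 723, and 658 CPM in libraries 5, 6, 7, and 8. The 95% Poisson intervals were 998 to 1016, 1036 to 1053, 717 to 730.1, and 651 to 665, and like all intervals below they cover counting error only. Libraries 5 and 6 were thus high and libraries 7 and 8 low. Without Isg15 and Ifih1 the sums were 976, 1014, 565, and 510.1 CPM. The wider distance follows from this choice, since both genes were higher in libraries 7 and 8. Samhd1, which was higher in libraries 5 and 6, alone gave 14.0%, 14.1%, 3.21%, and 3.50% of the UMIs of the 40 genes. The libraries count 1 end of each transcript, so these levels need no correction for gene length.

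To describe single genes, the 4 levels of a gene were put in order, and the gap was taken as the lower of the 2 highest levels over the higher of the 2 lowest. A gene was called where this gap was at least 2-fold, whichever libraries were high. Of the 38 genes with enough UMIs, 17 were called with libraries 5 and 6 highest, where 13% of all 10457 genes tested were. Another 2 were called with libraries 7 and 8 highest, against 12.2% of all genes. Libraries 5 and 6 were the highest, called or not, for 31 of the 38 genes and libraries 7 and 8 for 6, where they were for 4141 and 5336 of all genes tested. The median gap was 2.03 over the interferon genes and 1.41 over all genes tested. Libraries within these pairs lay close together: the median absolute log2 difference between libraries 6 and 5 was 0.07 and between libraries 8 and 7 0.18, while it was 1.07 between libraries 7 and 5. Over all genes tested, the median signed log2 level was 0.17 higher in library 7 than in library 5. Ups and downs cancel in this measure, so it is no background for the absolute difference of 1.07. The median absolute difference over all genes is not given.

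**Figure D1:**
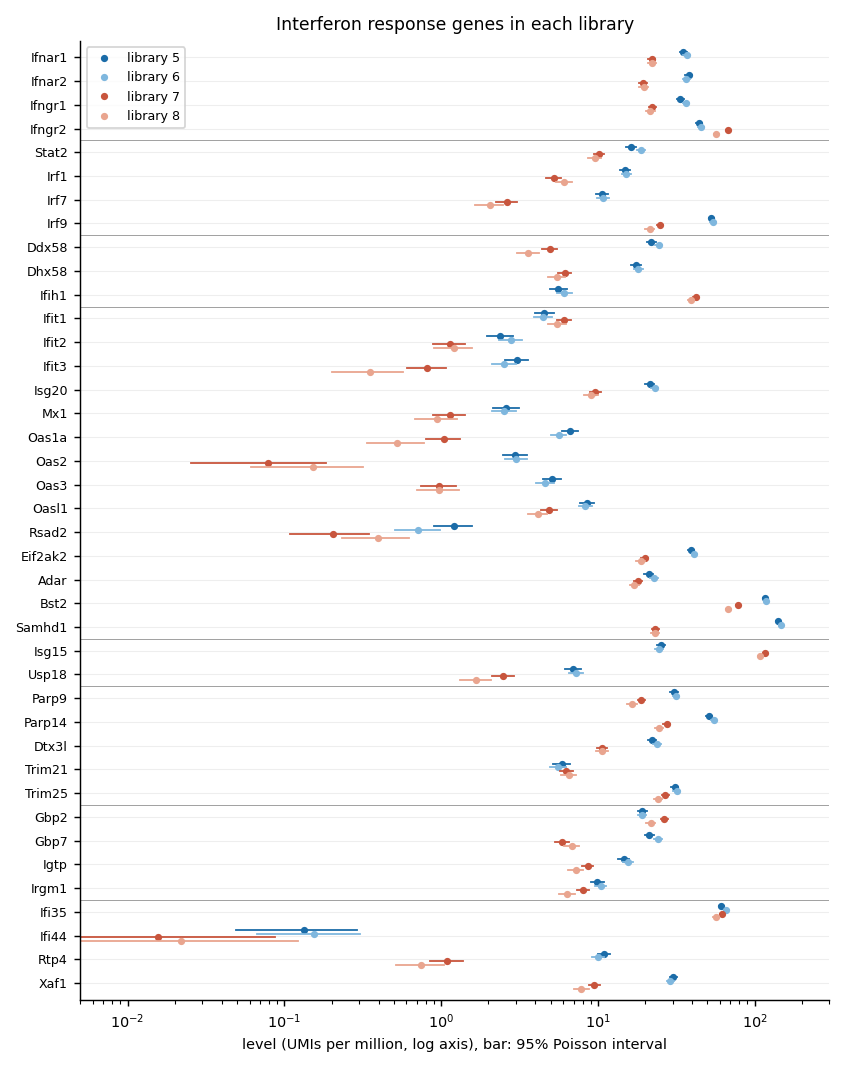
Level of each of the 40 interferon response genes (CPM, log axis) in libraries 5 to 8, with 95% Poisson intervals as bars and grey lines between functional groups. Most genes lie to the right in libraries 5 and 6, whereas Isg15 (25.2, 24.6, 116, and 108) and Ifih1 (5.6, 6.12, 42.2, and 39.4) lie to the right in libraries 7 and 8.

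The 4 receptor chains were all present, and none was called. Of all genes tested, 13% were called with libraries 5 and 6 highest and 12.2% with libraries 7 and 8 highest. A count over 4 genes is too small to set apart from these shares. Ifnar1 (chr16:91485238-91507441 on mm10), a chain of the type I interferon receptor, had 35.1, 36.8, 22.0, and 22.2 CPM in libraries 5, 6, 7, and 8. Its partner Ifnar2 had 38.0, 36.8, 19.4, and 19.6. Ifngr1, the ligand-binding chain of the interferon gamma receptor, had 33.6, 36.5, 22.2, and 21.6. For these 3 chains, libraries 5 and 6 were higher, with gaps of 1.58, 1.87, and 1.51. Ifngr2, the signaling chain of the same receptor, went the other way, with 43.9, 45.5, 67.9, and 56.9 and a gap of 1.25 (95% interval 1.18 to 1.32). Ifnar2, Ifnar1, and Ifngr2 are neighbors on chromosome 16, so the chains that differed in direction included genes that lie side by side.

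Among the transcription factors, 3 of 4 were called with libraries 5 and 6 highest, where 13% of all genes tested were. Irf7 (chr7:141262706-141266481), which amplifies type I interferon production, had 10.6, 10.8, 2.62, and 2.04 CPM, a gap of 4.05 (95% interval 3.39 to 4.86). Irf1, a factor induced by interferon gamma, had 15.0, 15.2, 5.22, and 6.06. Irf9, the DNA-binding part of a complex with Stat2, had 53.0, 54.3, 25, and 21.4. Stat2 had 16.3, 18.8, 10.2, and 9.52 and a gap of 1.60, short of the limit. In each of the 4 genes, both libraries 5 and 6 lay above both libraries 7 and 8. The same held for 4141 of all 10457 genes tested.

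The 3 cytosolic sensors of viral RNA split. Ddx58, which encodes RIG-I, had 21.9, 24.4, 4.93, and 3.59 CPM in libraries 5 to 8. Dhx58, which encodes the related LGP2, had 17.5, 18.1, 6.14, and 5.45. Both were called with libraries 5 and 6 highest, with gaps of 4.45 and 2.84. Ifih1 (chr2:62595798-62646255), which encodes the third sensor MDA5, had 5.6, 6.12, 42.2, and 39.4. It was called with libraries 7 and 8 highest, with a gap of 6.44 (95% interval 5.71 to 7.28). The shares over all genes tested were 13% with libraries 5 and 6 highest and 12.2% with libraries 7 and 8 highest. Ifih1 was found in 2.30%, 2.76%, 15.9%, and 14.9% of cells in libraries 5 to 8 once each cell was thinned to 5000 UMIs.

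Isg15 and Usp18, which act on the same pathway, were called in opposite directions. Isg15 (chr4:156199424-156200818) encodes a ubiquitin-like protein that is joined to other proteins or secreted, and it had 25.2, 24.6, 116, and 108 CPM. The gap was 4.31 (95% interval 4.04 to 4.60), with libraries 7 and 8 highest. Isg15 alone made up 2.50%, 2.35%, 16.0%, and 16.5% of the UMIs of the 40 genes in libraries 5, 6, 7, and 8. Usp18, the protease that removes Isg15 from proteins and restrains signaling at the type I receptor, had 6.96, 7.24, 2.50, and 1.66 and a gap of 2.78 with libraries 5 and 6 highest.

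The antiviral effectors formed the largest group, and 7 of the 13 with enough UMIs were called, all with libraries 5 and 6 highest. Of all genes tested, 13% were called in this direction. Samhd1 (chr2:157097533-157135265), an enzyme that breaks down the nucleotides viruses need for DNA synthesis, was the highest of the 40 genes in libraries 5 and 6, with 141, 147, 23.2, and 23.1 CPM. Its gap was 6.08 (95% interval 5.75 to 6.44), and it was found in 49.4%, 51.2%, 10.2%, and 10.3% of thinned cells. The Oas enzymes make short oligoadenylates that activate RNase L. Oas1a had 6.65, 5.62, 1.04, and 0.525 CPM. Oas2 had 2.97, 3.00, 0.0786, and 0.153, the widest gap of all (19.4, 95% interval 9.14 to 49.1), although it rests on 5 and 7 UMIs in libraries 7 and 8. Oas3 had 5.08, 4.63, 0.974, and 0.963. These 3 genes lie close together on chromosome 5, and their relative Oasl1 had 8.56, 8.31, 4.89, and 4.14, a gap of 1.70.

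The Ifit genes, which encode proteins that bind foreign RNA, did not follow one pattern. Ifit3 had 3.03, 2.54, 0.817, and 0.350 CPM and was called with libraries 5 and 6 highest. Ifit2 had 2.39, 2.79, 1.13, and 1.20, just under the limit with a gap of 1.98. Ifit1 had 4.55, 4.49, 6.08, and 5.50, with a gap of 1.21 (95% interval 1.00 to 1.46) toward libraries 7 and 8. Without the 36 cells richest in these UMIs, described below, the highest libraries for Ifit1 were 6 and 7 (gap 1.07), and the gap of Ifit3 was 5.21 instead of 3.1. The 3 genes lie within one stretch of chromosome 19, and reads shared with their near copies Ifit3b and Ifit1bl1 make their levels less certain.

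Of the remaining effectors, Isg20, a nuclease that degrades RNA, had 21.4, 23.0, 9.62, and 9.04 CPM. Mx1, a GTPase that blocks viral ribonucleoproteins, had 2.61, 2.54, 1.13, and 0.941. Both were called with libraries 5 and 6 highest. Bst2 (tetherin), which holds budding virus at the membrane, had 116, 119, 78.1, and 68.1. Eif2ak2, which encodes the RNA-activated kinase PKR, had 39.2, 41.3, 19.9, and 18.8. Adar, an RNA-editing enzyme, had 21.1, 22.7, 17.9, and 17.1. The gaps of these last 3 genes, 1.48, 1.97, and 1.18, were all toward libraries 5 and 6 and under the limit. Rsad2 (viperin), which was too rare to be counted, had 122 UMIs in all and 1.20, 0.717, 0.204, and 0.394 CPM.

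Of the 5 ubiquitin and ADP-ribose enzymes, 1 was called, where 13% of all genes tested were called with libraries 5 and 6 highest. This count is too small to set apart from that share. Dtx3l, a ubiquitin ligase, had 22.1, 23.9, 10.6, and 10.6 CPM and was called with a gap of 2.08. Its binding partner Parp9, which overlaps it on the other strand of chromosome 16, had 30.6, 31.5, 19.0, and 16.6. Parp14, a neighbor of both, had 51.4, 55.0, 27.5, and 24.5. Trim25, a ligase that activates RIG-I, had 30.8, 31.8, 27.0, and 24.3, and Trim21, a receptor for antibody-coated particles, had 5.86, 5.58, 6.30, and 6.5. The gap of Trim21 was 1.07 (95% interval 0.917 to 1.26), and the highest libraries were 5 and 8 instead of 7 and 8 when size factors were used or when mitochondrial, ribosomal protein, and immunoglobulin genes were left out of the total.

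Among the interferon-inducible GTPases, which act on vacuoles that hold pathogens, only Gbp7 was called, with 21.3, 24.1, 5.92, and 6.81 CPM. This 1 of 4 is likewise too small a count to set apart from the 13% of all genes tested. Igtp had 14.6, 15.6, 8.60, and 7.23 and Irgm1 9.95, 10.4, 8.09, and 6.37. Gbp2 had 19.2, 19.1, 26.6, and 21.8, a gap of 1.13 toward libraries 7 and 8. Of the last group, Rtp4, a chaperone of membrane receptors, had 11.0, 10.0, 1.08, and 0.744 and the second widest gap (9.25, 95% interval 7.19 to 12.1). Xaf1, a promoter of cell death, had 30.4, 29.0, 9.51, and 7.86 and was called as well. Ifi35 had 61.3, 65.9, 62.0, and 56.4, with libraries 6 and 7 highest, or 5 and 6 under those scalings (gap 1.01, 95% interval 0.962 to 1.06). Ifi44 had 16 UMIs in all.

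**Figure D2:**
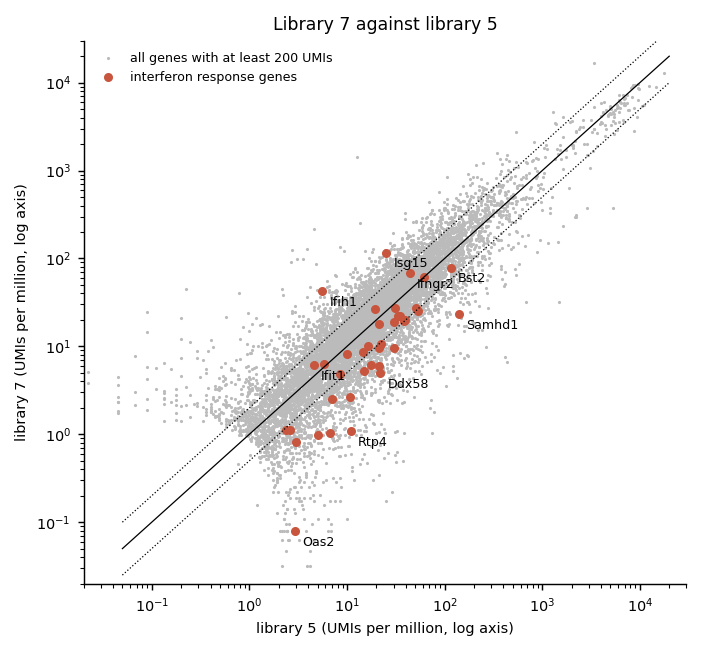
Level in library 7 against level in library 5 (CPM, both axes log) for all genes with at least 200 UMIs (grey) and for the interferon response genes (red), with the line of equal levels and dotted lines at 2-fold. Oas2, Rtp4, and Samhd1 lie below the lower dotted line, and Isg15 and Ifih1 lie above the upper dotted line.

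The wider pathway was counted from lists of ligands, signaling genes, brakes, and other interferon-stimulated genes. These lists, too, were chosen with earlier results of these data known. Of the 12 ligand genes, including Ifna1, Ifna2, Ifna4, Ifnb1, and Ifng, 10 had no UMI in any cell. A count of 0 allows up to 0.0471 to 0.0669 CPM, depending on the library. The other ligand genes were Ifnz, with 7 UMIs, and Ifnk, with 1. Of the 18 signaling genes with enough UMIs, 5 were called with libraries 5 and 6 highest and 3 with libraries 7 and 8 highest. The brakes gave 1 and 2 of 9, and the other interferon-stimulated genes 29 and 2 of 48. Over all genes tested, 13% were called with libraries 5 and 6 highest and 12.2% with libraries 7 and 8 highest. The counts for the signaling genes and the brakes are too small to set apart from these shares. The median gap over the 75 genes was 2.06, against 1.41 over all genes. It was 1.72 over the signaling genes, 1.59 over the brakes, and 2.51 over the other interferon-stimulated genes.

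The widest gaps with libraries 5 and 6 highest were those of the p200-family genes Ifi203, with 241, 243, 15.5, and 15.3 CPM, and Ifi213, with 8.07, 8.56, 0.959, and 0.854. The next was Unc93b1, which carries nucleic acid receptors to endosomes, with 417, 447, 51.7, and 47.6. With libraries 7 and 8 highest, the widest were Irf4, a factor of activated B cells, with 4.91, 6.35, 43.8, and 40.7, and Ifitm1, a membrane protein that hinders viral entry, with 0.959, 0.871, 6.05, and 4.75. The next was Jak1, the kinase shared by both receptors, with 195, 197, 849, and 798.

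Promoter sequences are shown for 4 genes chosen because they hold a short element known from interferon-stimulated genes, so that they share it follows from the choice. The interferon-stimulated response element binds the complex of Stat2 and Irf9 and other interferon regulatory factors. It was searched as GAAANNGAAA on both strands (TTTCNNTTTC on the other), from 250 bases before to 50 bases after the start of each gene in RefSeq (GRCm38.p6). RefSeq promoters were matched for 33 of the 40 genes, and 16 of them (48.5%) held a match, against 3.99% of 27025 genes. The gamma-activated site, an element of genes induced by interferon gamma, searched as TTCNNNGAA, which reads the same on both strands and may overlap the first, occurred in 13 (39.4%), against 9.55%. A match is a description of the letters and not a bound site. The 4 promoters below, with matches in capitals, belong to the genes with the 2 widest and the 2 narrowest gaps among those with a match.
Ifih1 (chr2:62646206-62646505, minus strand, wide gap): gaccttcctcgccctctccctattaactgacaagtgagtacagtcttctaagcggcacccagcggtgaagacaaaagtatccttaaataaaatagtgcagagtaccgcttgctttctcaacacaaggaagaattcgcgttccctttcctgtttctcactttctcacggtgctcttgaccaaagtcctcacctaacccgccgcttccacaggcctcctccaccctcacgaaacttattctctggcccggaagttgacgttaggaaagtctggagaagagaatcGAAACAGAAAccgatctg
Oas1a (chr5:120907476-120907775, minus strand, wide gap): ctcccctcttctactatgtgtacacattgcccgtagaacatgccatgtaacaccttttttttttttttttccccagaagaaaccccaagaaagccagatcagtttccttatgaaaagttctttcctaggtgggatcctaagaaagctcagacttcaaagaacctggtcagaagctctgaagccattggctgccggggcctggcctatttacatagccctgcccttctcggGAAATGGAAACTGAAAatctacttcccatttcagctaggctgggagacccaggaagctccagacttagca
Trim21 (chr7:102565433-102565732, minus strand, narrow gap): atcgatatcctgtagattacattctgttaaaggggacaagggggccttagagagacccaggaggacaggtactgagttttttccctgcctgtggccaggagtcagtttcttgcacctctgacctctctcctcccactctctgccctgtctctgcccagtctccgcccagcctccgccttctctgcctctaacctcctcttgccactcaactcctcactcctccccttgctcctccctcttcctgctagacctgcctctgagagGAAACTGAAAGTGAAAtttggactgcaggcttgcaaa
Gbp2 (chr3:142620413-142620712, plus strand, narrow gap): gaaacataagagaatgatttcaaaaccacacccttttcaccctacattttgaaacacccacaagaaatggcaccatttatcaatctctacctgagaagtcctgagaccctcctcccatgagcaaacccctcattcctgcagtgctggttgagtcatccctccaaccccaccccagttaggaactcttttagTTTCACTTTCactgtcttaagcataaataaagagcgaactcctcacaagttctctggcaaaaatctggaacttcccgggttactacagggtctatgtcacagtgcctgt

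In Oas1a, 2 overlapping matches began 20 and 14 bases before the start, and in Gbp2 a single match began 59 bases before it. In Trim21, 2 overlapping matches began 13 and 19 bases past the start, and in Ifih1 the match began 32 bases past it. Isg15, Ifit1, Ifit3, Rsad2, Ddx58, and Oas3 also held a match, whereas Irf7, Irf9, Samhd1, Xaf1, and Ifngr2 held none in this window. Genes with a match thus stood on both sides: Ifih1 and Isg15 were high in libraries 7 and 8, and Oas1a, Oas3, and Ddx58 in libraries 5 and 6.

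To see whether a subset of cells carried these genes, each cell was thinned to 5000 UMIs, which left 4038, 4600, 5388, and 3846 cells and left out 158, 114, 233, and 157 shallower ones. A typical cell held few UMIs of the 40 genes, with medians of 5, 5, 3, and 3 in libraries 5 to 8, and 1.39%, 1.43%, 5.64%, and 7.25% of cells held none. The variance between cells was 1.86, 1.68, 2.59, and 2.13 times the mean, where counting noise alone gives 1. No cell type that should lack these genes was present, so the part of free RNA in single UMIs was not measured.

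The highest cell of each library stood far above most others. Cells with 20 or more of these UMIs, a limit chosen after the values were seen, numbered 7, 5, 17, and 7, or 0.173%, 0.109%, 0.316%, and 0.182% of cells in libraries 5, 6, 7, and 8. The exact 95% intervals were 0.0697% to 0.357%, 0.0353% to 0.253%, 0.184% to 0.505%, and 0.0732% to 0.375%. They held 1.04%, 0.642%, 2.83%, and 1.59% of all UMIs of the 40 genes. The highest cell of library 5 had 80, from 22 different genes, with 13 from Isg15, 12 from Ifit3, and 9 from Ifit1. The highest in libraries 6, 7, and 8 had 62, 71, and 43, and Isg15 gave 14, 16, and 17 of these. In the highest cell of library 7, Bst2 gave another 18. The next highest cells of libraries 5 and 6 had 27 and 30. The others in these 2 libraries had 21 or 22, close to cells of 19 that the limit left out. Some of the cells at 21 had no UMI of Isg15 or of an Ifit gene, so the cells above the limit were not alike.

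All 36 of these cells had UMIs of the B cell gene Cd79a, with as few as 1 in a cell. Cd79a had at least 1033 CPM in every library, and the share of other cells with it was not computed. Another B cell gene, Ms4a1, had 1499, 1510, 32.0, and 37.0 CPM in libraries 5 to 8. It had no UMI in some of the 36 cells, all from the libraries where its level was low. Of the 36 cells, 1 had a UMI of a T cell gene, 1 of a plasmacytoid dendritic cell gene, and none of an NK or myeloid gene. Of the other cells, 0.622% had a UMI of a T cell gene and 3.58% of a plasmacytoid dendritic cell gene. For NK genes the share was 0.678% and for myeloid genes 1.66%. With shares this low, counts over 36 cells cannot tell whether these cells differ from the others. The median total of the 36 cells before thinning was 7419, 8185, 9941, and 11800 UMIs in libraries 5 to 8. It was 8888, 8876, 10522.5, and 10220 for all cells thinned. Without the 36 cells, the variance over the mean was 1.51, 1.5, 1.79, and 1.77, still above 1 in each library.

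**Figure D3:**
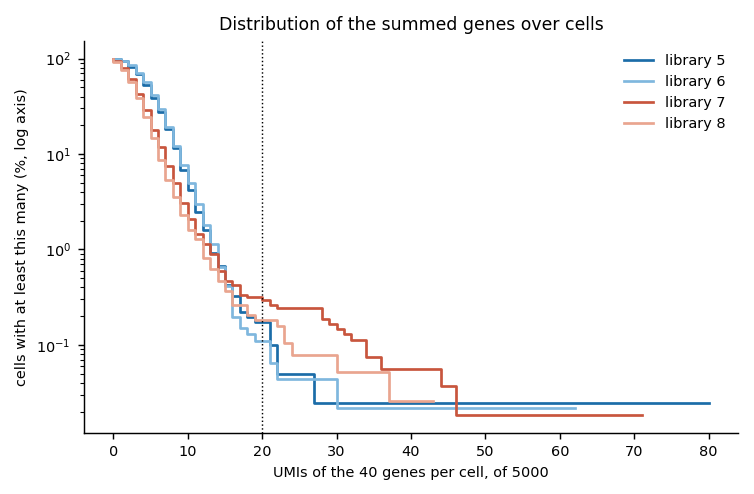
Share of cells (%, log axis) with at least a given number of UMIs of the 40 genes among 5000 UMIs, one line per library. Beyond the dotted line at 20 UMIs the lines flatten into a tail of 7, 5, 17, and 7 cells in libraries 5 to 8, which reaches 80, 62, 71, and 43 UMIs.

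Isg15 and the Ifit genes were uneven between cells. The variance over the mean of Isg15 was 1.43, 1.44, 2.60, and 2.57 in libraries 5, 6, 7, and 8, and that of Ifit1 2.08, 1.33, 1.53, and 4.18. For Ifit3 it was 3.55, 2.25, 2.28, and 0.999, with UMIs in 1.09%, 1.09%, 0.167%, and 0.130% of cells. In library 8, Ifit1 reached 14 and 12 UMIs in single cells, which weigh on its ratio there. The 36 cells held 32.8%, 20%, 71.4%, and 20% of all Ifit3 UMIs after thinning. They were picked by a sum that includes Ifit3, so raised shares follow at least in part from the choice. Ifit3 was found in only 9 cells of library 7 and 5 of library 8, so these shares rest on few UMIs. Samhd1, the most abundant gene in libraries 5 and 6, stood at 1.15, 1.13, 1.20, and 1.19, and the receptor chain Ifngr1 at 1.02, 1.02, 0.974, and 1.01.

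Pearson correlations between genes over cells were mostly near 0, with medians over gene pairs of 0.0148, 0.0131, 0.0226, and 0.0134 in the 4 libraries. In library 5 the highest were those of Ifit3 with Rsad2 (r = 0.692), Ifit2 (r = 0.619), and Ifit1 (r = 0.581), over 4038 cells that share library and depth. Without the 7 cells with 20 or more UMIs, these were 0.0260, 0.0123, and 0.00541. The highest of these 7 cells alone held 12 UMIs of Ifit3, 9 of Ifit1, 7 of Ifit2, and 5 of Rsad2. The next had 5 of Ifit3 and 2 of Rsad2 but none of Ifit1. These r values thus rest largely on 1 cell and do not describe a group of cells. The pairs with r of at least 0.1 went from 43, 9, 45, and 18 to 0, 0, 6, and 5 in libraries 5 to 8. The cells left out were chosen by their sum over these same genes, so lower correlations follow at least in part from the choice. In library 7, Ifit1 with Isg15 had r = 0.298, and 0.171 without the cells of 20 or more UMIs.

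A second description used 6 genes only. A cell was counted as a carrier if it held UMIs of at least 2 different genes among Ifit1, Ifit3, Rsad2, Usp18, Oasl1, and Ifi44. Carriers numbered 30, 30, 24, and 15, which is 0.743%, 0.652%, 0.445%, and 0.390% of cells in libraries 5, 6, 7, and 8, with exact intervals of 0.502% to 1.06%, 0.440% to 0.930%, 0.286% to 0.662%, and 0.218% to 0.642%. These intervals all overlap one another, and the order of the libraries changed at a depth of 3000 UMIs. Among the 6 genes, Usp18 was found in 3.59%, 3.67%, 0.928%, and 0.624% of cells in libraries 5 to 8. Oasl1 was found in 3.96%, 3.61%, 2.10%, and 1.79%, whereas Ifit1 was found in 1.51%, 1.70%, 2.67%, and 1.87%. How many cells would hold 2 of the 6 genes independently was not computed, so the shares alone do not give the size of a subset. The other 34 genes, which were not used to choose carriers, summed to 1813 CPM in carriers against 993 in the other cells, 1920 against 1028, 3442 against 701, and 2987 against 642. The log2 ratios were 0.87 (95% interval 0.69 to 1.04), 0.90 (95% interval 0.73 to 1.07), 2.30 (95% interval 2.15 to 2.44), and 2.22 (95% interval 2.02 to 2.41). Without the cells of 20 or more UMIs they were 0.51, 0.56, 1.01, and 1.74.

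Carriers were themselves mixed. The median carrier had 8, 8, 11.5, and 14.0 UMIs of the other 34 genes, where the median of other cells was 5, 5, 3, and 3. Those above the 95th percentile of the other cells of their library numbered 8, 7, 15, and 12. Median totals before thinning were 8250.5, 7787, 10566.5, and 10748 in carriers and 8894.5, 8878.5, 10520.5, and 10218 in other cells, with carriers the shallower in libraries 5 and 6 and the deeper in libraries 7 and 8.

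Gene by gene, the UMIs in all 99 carriers were set against those expected from the other cells of the same libraries. Of the 34 genes, 25 had at least 5 expected UMIs, and 13 of these were at 2-fold or more, where 1.02% of 6560 genes were. The median ratio was 2.08 over these 25 genes and 0.979 over all genes. Isg15 had 180 against 25.4, 127 against 23.4, 1158 against 117, and 1120 against 105 CPM, carriers against other cells, in libraries 5, 6, 7, and 8, a ratio of 9.21 (95% interval 8.14 to 10.4). Isg20 had 80.0 against 22.1, 73.3 against 23.2, 75.0 against 9.21, and 93.3 against 8.25, a ratio of 4.58 (95% interval 3.26 to 6.26). Both genes were higher in carriers in all 4 libraries.

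Ifih1 had a ratio of 3.64 (95% interval 2.54 to 5.06), which rests on libraries 7 and 8, with 22 and 11 UMIs in carriers. For Dhx58 it was 3.63 (95% interval 2.30 to 5.44), for Eif2ak2 3.22 (95% interval 2.37 to 4.26), and for Parp14 3.02 (95% interval 2.33 to 3.86). Among genes with under 5 expected UMIs, Ifit2 had 23 UMIs where 0.871 were expected, Irf7 31 where 3.92 were, and Mx1 11 where 0.857 were. Of the 9 such genes, 8 had more UMIs than expected. The share over all genes this rare is not given, so this count has no background. Among the 8, Trim21 had only 5 where 3.11 were expected, and Oas1a had only 3 where 2.17 were. Oas2 had 1 where 1.04 were expected. The receptor chains were at 0.601 (95% interval 0.275 to 1.14) for Ifngr1, 0.916 (95% interval 0.501 to 1.54) for Ifnar2, 0.994 (95% interval 0.556 to 1.64) for Ifnar1, and 1.20 (95% interval 0.818 to 1.71) for Ifngr2. All 4 intervals included 1. So did those of Irf1 at 1.22 (95% interval 0.491 to 2.52), Gbp2 at 1.55 (95% interval 0.889 to 2.52), and Ddx58 at 1.80 (95% interval 0.982 to 3.01).

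**Figure D4:**
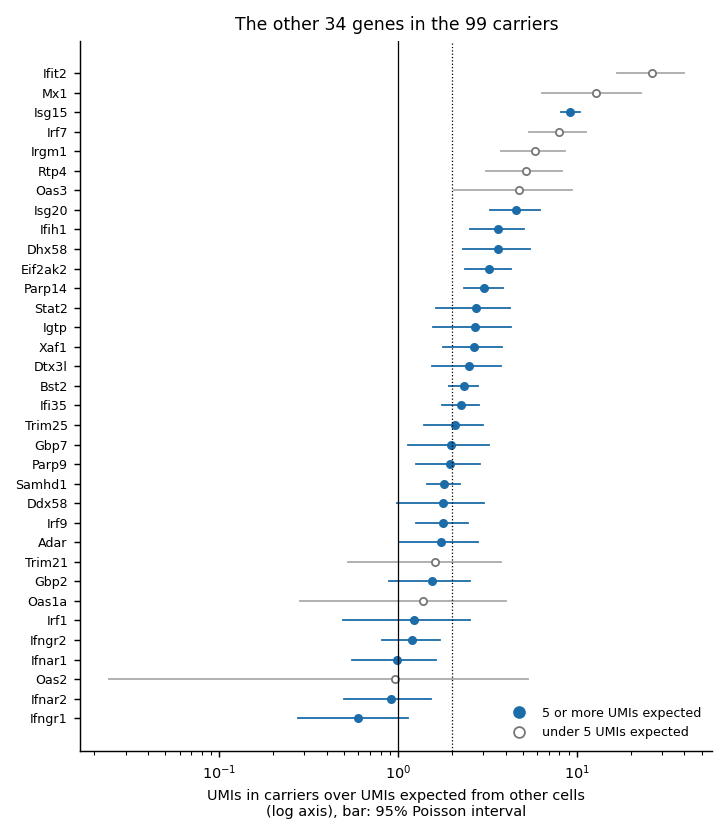
UMIs of each of the other 34 genes in the 99 carriers over the number expected from the other cells of the same libraries (log axis), with 95% Poisson intervals. Lines mark 1 and 2, filled points are the 25 genes with at least 5 expected UMIs, and the 4 receptor chains lie among the lower values with intervals that include 1.

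Genes outside the 40 were ranked by their smallest ratio over the libraries, among those with at least 20 UMIs in carriers. This limit was set on the carriers themselves, so a gene with few expected UMIs could pass only by being high in them. High ratios among the genes named here therefore follow in part from the limit. Of the first 10, all but Usp25 were on the list of other interferon-stimulated genes, which was chosen with earlier results of these data known. Slfn5, a regulator of transcription and viral growth, was 7.08, 9.57, 17.5, and 9.29 times as high in carriers in libraries 5 to 8. Ifi213 was 6.64, 4.87, 86.9, and 17.0 times as high. The p200-family genes Ifi214, Ifi206, Ifi209, and Ifi203, the GTPase gene Ifi47, and Trim30d followed, with smallest ratios of 4.48, 4.09, 2.18, 1.96, 2.30, and 2.28. Cxcl10, a chemokine that attracts activated T cells, had 21 UMIs in carriers where 0.191 were expected, and it had no UMI in any cell of libraries 5 and 6. Usp25, a ubiquitin protease, had 34 UMIs where 15.2 were expected.

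Clusters were formed without the interferon genes, and cluster by library levels were read where at least 50 cells remained. Most cells of libraries 5 and 6 fell into cluster A (led by Nrg4, S1pr1, and Gm2447), cluster D (led by Dhrs3, Ly6k, and Ccl3), and cluster E (led by mitotic genes such as Ccnb2). Most cells of libraries 7 and 8 fell into cluster B (led by Cartpt and Id1), cluster C (led by replication genes such as Mcm5), and cluster F (led by mitotic genes such as Cdk1). Cluster G, led by Jchain, had enough cells in library 7 only. Cluster G held cells of all 4 libraries, but no cluster reached 50 cells both in libraries 5 or 6 and in libraries 7 or 8, so clusters were compared within a library.

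In libraries 5 and 6 the summed level of the 40 genes was highest in cluster A, at 1077 and 1111 CPM. It was 848 and 862 in cluster D and 844 and 907 in cluster E. In libraries 7 and 8 it was 732 and 657 in cluster B, 736 and 662 in cluster C, and 617 and 629 in cluster F. The highest cluster of a library was 1.28, 1.29, 1.19, and 1.05 times the lowest in libraries 5 to 8.

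**Figure D5:**
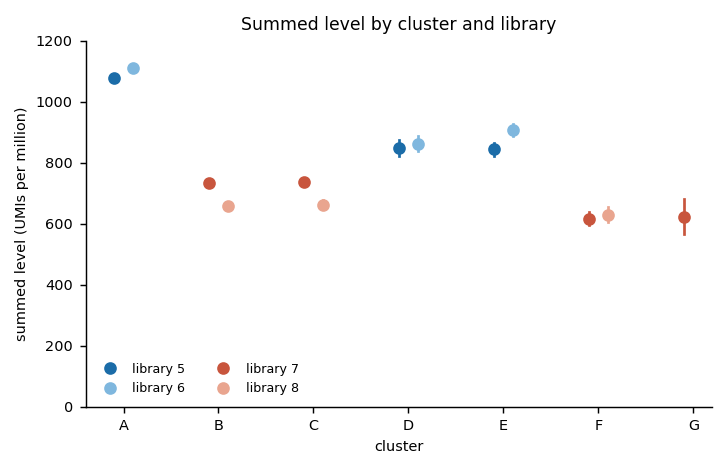
Summed level of the 40 genes (CPM) by cluster and library, for clusters with at least 50 cells of a library, with 95% Poisson intervals that are often smaller than the points. Cluster A stands at 1077 and 1111, and no cluster of libraries 7 and 8 exceeds 736.

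Samhd1 was lower outside cluster A. It had 165 and 168 CPM in cluster A of libraries 5 and 6, 75.5 and 79.2 in cluster D, and 89.6 and 104 in cluster E. Rtp4 had 13.4 and 12.2 in cluster A and 6.06 and 4.22 in cluster D, a log2 ratio of -1.14 (95% interval -1.71 to -0.62) and -1.53 (95% interval -2.20 to -0.93). Isg15 was at 24.9 and 23.8 in cluster A and 30.9 and 28.1 in cluster D. In libraries 7 and 8, Isg15 had 119.8 and 108 in cluster B, 120.3 and 117 in cluster C, and 77.3 and 95.1 in cluster F. Ifih1 was at 43.0 and 39.1 in cluster B and 48.0 and 54.8 in cluster F.

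The Jchain-led cluster G of library 7 held 56 cells. Isg20 stood at 60.3 CPM there and 9.42 in cluster B, which on the log2 scale was a ratio of 2.68 (95% interval 2.21 to 3.12). Ifih1 stood at 6.42 and 43.0, which was -2.74 (95% interval -4.37 to -1.52) on that scale. Eif2ak2 was higher in cluster C than in cluster B in libraries 7 and 8, with log2 ratios of 0.42 (95% interval 0.24 to 0.59) and 0.38 (95% interval 0.16 to 0.60). Cluster A held 26 of 30 carriers in library 5, where it held 3322 of 4196 cells, and 28 of 30 in library 6, where it held 3719 of 4714. Cluster B held 15 of 24 carriers and 3983 of 5621 cells in library 7, and 7 of 15 and 2865 of 4003 in library 8. Cluster C held 9 of 24 carriers and 1299 of 5621 cells in library 7, and 7 of 15 and 837 of 4003 in library 8.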

How the data were processed

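Libraries were made by the authors with Chromium Single Cell 3' v3 chemistry. Per the labels and the study's methods, reads were demultiplexed with bcl2fastq, aligned to mm10 (Ensembl 93), and counted with CellRanger (version 3.1.0), and libraries were combined with CellRanger aggr, which evens out depth. The deposited values are whole UMI counts per gene and cell, with no further scaling after that step that the sources used here state. The barcodes were assigned in order to the last of 35989 matrix columns, and 16069 columns that no barcode names were not used. As a check of that order, the largest shift in expression near the first column of library 7 fell on that column, near library 8 it fell 2 columns away, and near library 6, 14 columns away. Cells with at least 1000 genes and under 10% mitochondrial UMIs were kept. No doublet caller was run and no cells were removed as doublets.

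Counts were summed per library and divided by all UMIs of its cells to give CPM. Since library numbers name no sample, the cells are 1 pooled sample, and no test between conditions was made. Genes with at least 200 UMIs entered the gap comparison. Intervals at 95% are exact Poisson for levels, exact conditional for ratios, and the method of Clopper and Pearson for a share (computed in SciPy, version 1.17.1), and 3 counts served as the floor for a count of 0. Clusters came from Seurat (version 5.3.0, R version 4.3.3), with 20 components and a resolution of 0.3, from 1938 of 2000 variable genes after the interferon lists were removed. Positions are those of GENCODE on GRCm38, the same build as mm10 but another annotation release; 3 of the 40 genes (Ifnar2, Irf9, and Igtp) overlap another gene on the same strand, whose reads can be hard to tell apart. Mx2, Cxcl11, and Oas1b were not analysed here, and some other items are not reported here. The gap rule and the thinning were tested on simulated data.

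The members and lists were chosen with earlier results of these data known. All 40 genes were named. Of the pathway lists, the 3 widest called gaps in each direction and ligands with any UMI were named. Outside the 40, the 10 genes with the highest smallest ratio in carriers, at 20 or more UMIs, were named. A further condition for libraries with 50 or more carriers never applied. Alternatives were other denominators, size factors, equal weight per cell, no filters, other gap limits, other thinning depths, 3 genes per carrier, and other clusterings.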

Additional observations from a re-analysis of the deposited data

How the results depend on the processing

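Under each alternative scaling, libraries 5 and 6 kept the higher summed level. It was 1897, 1938, 1193, and 1118 in libraries 5 to 8 with mitochondrial, ribosomal protein, and immunoglobulin genes left out of the denominator. It was 1053, 1064, 674, and 637 with median-of-ratios size factors, and 1023, 1057, and 737 in libraries 5 to 7 with each cell weighted alike. The genes called with libraries 5 and 6 highest numbered 27 at a 1.5-fold limit and 17 to 21 under the other settings, and all 17 genes reported were among them. Isg15 and Ifih1 were called under each of these settings. Of all 10457 genes tested, 1361 were called with libraries 5 and 6 highest as reported. This number also rose under other scalings, to 1618 with the other denominator and 1545 with size factors. The number of all genes at the 1.5-fold limit is not given, so the 27 genes have no background. The share of carriers was 2.69, 2.76, 1.28, and 1.20% without thinning, 0.310, 0.276, 0.321, and 0.226% at 3000 UMIs, and 0.0991, 0.0435, 0.130, and 0.0260% with at least 3 of the 6 genes, and library 7 had the largest share under the last 2 of these. The log2 ratio of the other 34 genes in carriers stayed above 0: 1.13, 1.25, and 2.54 in libraries 5 to 7 at 3000 UMIs, 2.09, 2.44, 3.23, and 2.62 with 3 genes, and 0.51, 0.56, 1.01, and 1.74 without the cells of 20 or more UMIs, an alternative chosen after seeing the data. The variance over the mean was 1.39, 1.40, 2.18, and 1.69 at 3000 UMIs and 1.51, 1.5, 1.79, and 1.77 without those cells. The highest over the lowest cluster was 1.24 and 1.19 in libraries 5 and 6 at a resolution of 0.1. The cause of these movements was not tested. No paired analysis was possible because the library numbers name no sample, and for the same reason no replicate could be left out. Genes with few UMIs, such as Oas2 in libraries 7 and 8, carry wide intervals.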

Other observations

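Il10, the cytokine by which regulatory B cells are best known, was read in the same carriers. A UMI of Il10 was found in 19 of 24 carriers of library 7 (79.2%, exact 95% interval 57.8% to 92.9%), against 56.5% of its other cells. In library 8 it was found in 7 of 15 (46.7%), against 57.7%. Library 5 gave 4 of 30, against 4.27%, and library 6 gave 0 of 30, against 3.63%, so there was no common direction over the libraries. Cycling genes (Mki67, Top2a, Cdk1, Ccnb1, and Birc5) had 30 UMIs in carriers where 73.1 were expected from the other cells, and they were lower in carriers in each of the 4 libraries. Plasma cell genes were higher in the carriers of library 8 (1707 against 328 CPM), where 1 carrier lay in the Jchain-led cluster. They were lower in the carriers of libraries 5, 6, and 7, with 1627 against 1660, 1500 against 1816, and 200 against 371 CPM. Cxcl10 had 65 UMIs in library 7 and 81 in library 8 and none in libraries 5 and 6. The 95% Poisson interval of a count of 0 reaches up to 0.0823 CPM in library 5 and 0.0714 in library 6.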
